A study of Rattus norvegicus with 17 samples.

Results

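Collagens, matrix glycoproteins, the proteases that cut them and the inhibitors of those proteases were followed as a set of 48 genes, out of 23487 in the count table, in rat kidneys after sub-total nephrectomy (SNx). The genes were chosen by the start of their symbol (for example Col, Mmp, Adam, Timp, Serpin, Cts, Lox) among the genes that the study itself lists as changed in either of its SNx studies. Of the 48, 37 were listed only in study 1, whose rats are other animals than those described here, 9 were listed in both studies and 2 only in study 2. The copies of both lists used here were shortened, that of study 2 far more, so a gene counted as listed only in study 1 may also stand in the full study 2 list. The libraries described here are those of study 2, and the 37 genes entered through study 1, so they were tested here. The remaining 11 are described with values and no test, because their listing rests on these same kidneys.

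The 12 SNx libraries came from male Wistar Han rats in which part of the right kidney was resected and the left kidney was removed in a later operation. Culling was planned on functional limits of proteinuria and serum creatinine, so time after surgery differed between rats. By the study's account only a minority of the operated study 2 rats reached a limit, fewer than the 12 libraries here. With 1 rat per library, some of these 12 thus came from rats that did not. The labels say neither which ones nor at what time the 12 were taken. The 5 control libraries are labelled NoOp, and the study's methods call the control rats sham-operated. Each library held bulk RNA of kidney tissue and was taken to come from 1 rat. By the study's methods the tissue was divided, part fixed for histology and the rest frozen for proteomics or RNA. No separation of cortex, medulla or cell types is stated, and neither group received a drug according to the labels. The model has no genetic change.

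Fibrosis is a build-up of extracellular matrix. Fibrillar collagens are secreted by fibroblasts and myofibroblasts, folded with the help of collagen-specific chaperones and crosslinked by lysyl oxidases, while basement membrane collagens lie under epithelium and endothelium. Matrix metalloproteinases (MMPs), ADAMTS proteases and cathepsins cut matrix proteins. Tissue inhibitors of metalloproteinases (TIMPs) block the metalloproteinases, and serpins block serine proteases, including those of clotting and clot removal. In the kidney TIMP-1 is a long-known companion of fibrosis.

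The SNx libraries held 19210434 to 30784070 estimated counts and the NoOp libraries 30454170 to 43876369, so the controls were the deeper group. Proximal tubule markers, which check the tissue, summed to between 29685 and 37704 CPM (counts scaled to the normalised library size) in NoOp, and in SNx they ranged from 1874 to 20825 CPM. All 14 measured genes of that list fell in SNx, and 12 of them fell when library size alone was used for scaling. Macrophage markers with an identifier numbered 17 of 22, 3 of them on the study's list for these kidneys, and all 17 rose. Only genes that the study lists as changed have an identifier, so such counts are largely set by that choice. The macrophage sum went from 147-234 CPM in NoOp to 454-1194 CPM in SNx. In bulk tissue, fewer cells of a type and less RNA per cell cannot be told apart, and the part of these shifts in the results below was not tested. The library SNx 1 stood apart. It had the highest level of 32 of the 47 members that passed the count filter, against 19.8% of all genes, and values without it are given where it matters. Without SNx 1 the folds of Col1a1 and Postn were over 1.5 times smaller, and those of the other members moved by less.

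Most of the matrix and protease genes were higher in SNx kidneys. Of the 36 genes that were tested in these libraries and passed the filter, 30 rose, 3 fell (Mfap3l, Serpinc1 and Serpinf2) and 3 did not pass the threshold (Vcan, Mmp11 and Serpine2), with edgeR's quasi-likelihood test at a false discovery rate (FDR) of 0.05 over 15438 genes. Among all genes tested 58.0% were called, 30.3% as higher and 27.7% as lower. Since the 36 come from a list of genes changed in study 1, the nearer background is the other 1492 genes listed only there, of which 92.1% were called, 48.9% as higher and 43.2% as lower. The share called was thus close to that of the study 1 list, while the share of rises was larger. The median log2 fold change was 1.68 over the 36, 0.28 over those other genes and 0.02 over all genes tested. Without SNx 1 the count called was also 33. Of the 47 genes that passed the filter, 35 had every SNx library above every NoOp library, where 13.5% of all genes did, and 3 had every SNx library below, where 9.6% of all genes did. Within the 36 tested genes these counts were 26 and 2, and among the other genes listed only in study 1 the shares were 35.3% above and 25.7% below. The remaining member, Mmp3, had too few counts.

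**Figure D1:**
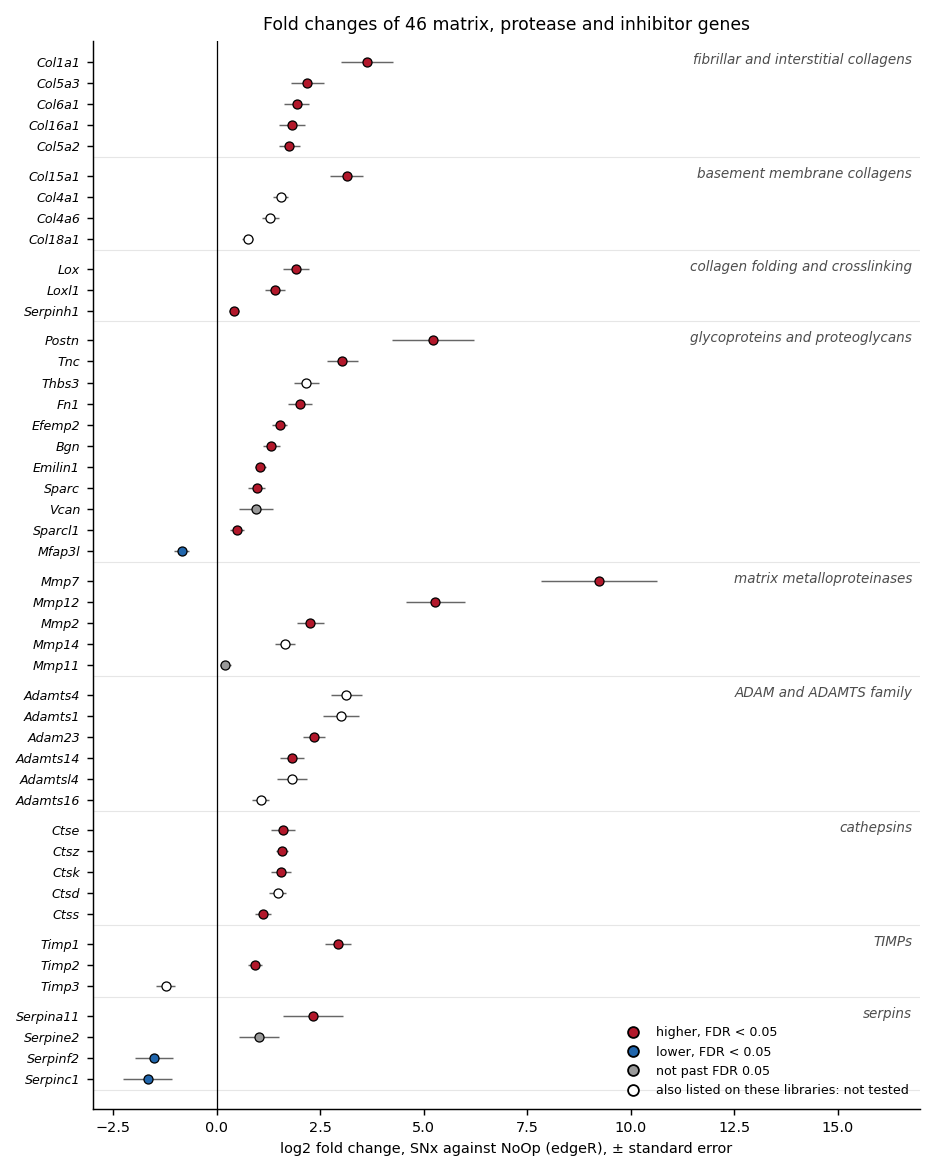
log2 fold change of SNx against NoOp with its standard error for 46 members that passed the count filter, ordered by role. Filled points are 35 tested genes, coloured by call, and open points are the 11 genes described with no test. The fitted value of Mmp7 is no bound, since its controls had at most 2 counts. Nearly all points lie right of 0, and the 4 lowest are Serpinc1, Serpinf2, Timp3 and Mfap3l.

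All 5 fibrillar and interstitial collagens rose. Of the other genes listed only in study 1, 48.9% were called as higher and 43.2% as lower. Col5a2 (ENSRNOG00000003736), a chain of collagen V, which sets fibril width, was 5.37, 5.76, 5.18, 5.25 and 5.39 log2 CPM in NoOp 1 to 5. In SNx it ran from 6.35 through a median of 7.01 to 8.28. The groups did not overlap, and the log2 fold change was 1.75 ± 0.25 (SE, FDR = 2.9e-05, edgeR). Col6a1 (ENSRNOG00000001249), a chain of the beaded collagen VI, was 6.08, 5.97, 5.73, 5.97 and 5.64 log2 CPM in NoOp and 6.67, 7.61 and 9.17 at the lowest, median and highest SNx library. Again all 12 SNx libraries were above all controls (1.93 ± 0.30, FDR = 6.4e-05, edgeR). The main chain of collagen I, Col1a1, changed most in this group. Its median was 6.51 log2 CPM in NoOp and 9.61 in SNx. The fold fitted to mean counts, in which high libraries weigh more, was 12.3 (FDR = 0.00018, edgeR). SNx 1 reached 12.50 log2 CPM for Col1a1 and the next library 10.04, and without SNx 1 the log2 fold change fell from 3.63 to 2.97, so that the fold was 1.57 times smaller. Col5a3 rose 4.54-fold and Col16a1, a fibril-associated collagen, 3.52-fold.

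Among the basement membrane collagens only Col15a1 could be tested here, and it rose. Collagen XV (ENSRNOG00000060381) ties basement membranes to the interstitium beneath them. It was 3.74, 4.10, 3.56, 3.37 and 4.04 log2 CPM in NoOp and 5.74, 6.68 and 8.45 at the lowest, median and highest SNx library. The log2 fold change was 3.13 ± 0.40 (FDR = 1.2e-05, edgeR), and it was 2.86 without SNx 1. The 3 collagens that were described only were also higher. Col4a1, a chain of the collagen IV network, had a fold of 2.92, Col4a6 2.45 and Col18a1, the source of endostatin, 1.67, with 1 SNx library of Col18a1 inside the control range.

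The genes for folding and crosslinking collagen rose less than collagen I. Loxl1 (ENSRNOG00000008680), a lysyl oxidase of elastic fibres, was 6.22, 6.21, 5.82, 6.29 and 5.89 log2 CPM in NoOp, and in SNx 6.77, 7.31 and 8.35 at the lowest, median and highest (1.41 ± 0.23, FDR = 0.00012, edgeR). Lox (ENSRNOG00000014426), which crosslinks collagen, was 2.51, 2.57, 2.69, 2.92 and 1.78 log2 CPM in NoOp and 3.11, 4.42 and 5.62 in SNx (1.92 ± 0.32, FDR = 0.00014, edgeR). Neither gene overlapped between groups. Serpinh1 encodes the collagen chaperone HSP47 and is not counted here among the serpins. It rose 1.34-fold (FDR = 0.0056, edgeR), from 7.48-7.75 log2 CPM in NoOp to 7.48-8.41 in SNx. The library numbers in the labels fall into 2 ranges with 6 SNx libraries each and all controls in the lower range. The Serpinh1 call was lost when only the 6 SNx libraries of the upper range were used (log2 fold change 0.30).

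**Figure D2:**
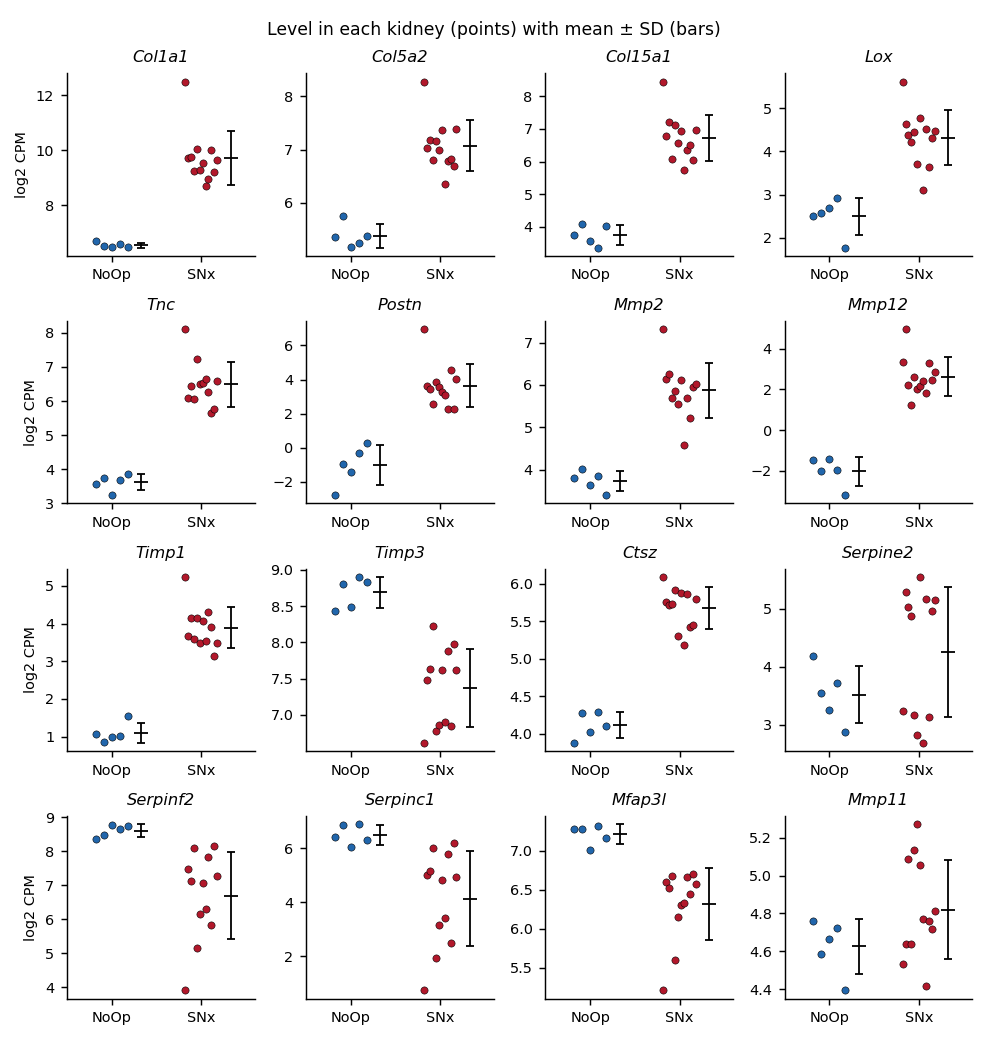
log2 CPM of 16 members in each kidney, with NoOp (5 libraries) left and SNx (12 libraries) right in each panel, and the mean ± SD beside the points. Col1a1 to Timp1 and Ctsz show no overlap between groups, Timp3, Serpinf2 and Mfap3l lie below all controls, and Serpine2 falls into a lower and an upper set of SNx rats. Vertical scales differ between panels and do not start at 0.

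Of the 10 tested glycoproteins and proteoglycans, 8 rose, 1 fell and 1 did not pass. Among the other genes listed only in study 1, 92.1% were called, 48.9% as higher and 43.2% as lower. Efemp2 (ENSRNOG00000020587), or fibulin-4, which is needed for elastic fibres, was 4.69, 4.52, 4.17, 4.50 and 4.19 log2 CPM in NoOp and 5.36, 5.84 and 6.56 in the lowest, median and highest SNx library (1.52 ± 0.18, FDR = 6.4e-06, edgeR). Tnc (ENSRNOG00000058645), tenascin-C, a glycoprotein of wounds and scars, was 3.56, 3.73, 3.24, 3.68 and 3.87 log2 CPM in NoOp and 5.66, 6.48 and 8.11 in SNx, an 8.17-fold rise (FDR = 7.4e-06, edgeR). Both genes kept the groups apart. Postn, the matricellular periostin, had the largest fold of the glycoproteins at 37.4 (FDR = 0.00034, edgeR), from -2.78 to 0.25 log2 CPM in NoOp and from 2.25 to 6.95 in SNx. The highest of these was SNx 1, and without that library the log2 fold change of Postn was 4.35 instead of 5.23, so that the fold was 1.84 times smaller.

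Fibronectin (Fn1) rose 4.06-fold, biglycan (Bgn) 2.50-fold, Emilin1 2.08-fold and Sparc 1.96-fold. Sparcl1, a relative of Sparc, rose 1.41-fold (FDR = 0.015, edgeR) and lost its call with the SNx libraries of the upper range alone (log2 fold change 0.40). Thbs3, a thrombospondin, was described only, with a fold of 4.49 and no overlap. Vcan, the proteoglycan versican, was 3.14, 4.23, 5.11, 5.04 and 5.13 log2 CPM in NoOp, so the controls themselves spread widely, and 4.22, 5.39 and 7.07 in SNx. Its log2 fold change of 0.95 ± 0.40 had an FDR of 0.051 (edgeR), and it passed when SNx 4, SNx 6, SNx 8 or SNx 9 was left out (0.99 to 1.03) and under 4 other alternatives. Mfap3l (ENSRNOG00000011775) went the other way. It was 7.27, 7.28, 7.01, 7.33 and 7.17 log2 CPM in NoOp and 5.21, 6.49 and 6.70 in SNx, below every control in all 12 rats (-0.84 ± 0.18, FDR = 0.00098, edgeR). Mfap3l is named after a microfibril protein, but its product is a membrane protein and not a matrix fibre.

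Beside these matrix genes, fibroblast and myofibroblast markers with an identifier numbered 5 of 14, with Vim on the study's list for these kidneys. Of them Vim, Tagln and Des rose and Cnn1 and S100a4 did not pass (log2 fold changes of 0.49 and -0.14), and their summed level went from 215-281 CPM in NoOp to 467-1558 CPM in SNx. Of 13 genes of the TGF-beta list 5 had an identifier, and all 5 rose. Inhba, a subunit of activins, led with a log2 fold change of 3.62, before Tgfb2 (2.13) and Tgfb1 (1.61). On the study's list for these kidneys are 2 of the 5, with Tgfb2 among them. Only genes that the study lists as changed have an identifier, so such counts are largely set by that choice. Of the other genes listed only in study 1, 92.1% were called. The part of either list in the matrix results was not tested.

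The matrix metalloproteinases included the members with the largest folds. Mmp3, Mmp7 and Mmp12, also called stromelysin-1, matrilysin and macrophage elastase, are neighbours, with start sites within 266.4 kb of chromosome 8 in the GRCr8 assembly. Their promoters from RefSeq are shown because all of them hold the same pair of short elements. Each line gives the 150 bases before the start site, plus strand, and the capitals mark the AP-1 letters TGANTCA and the TATA box letters TATAAA.
Mmp3, chr8:12925131-12925280: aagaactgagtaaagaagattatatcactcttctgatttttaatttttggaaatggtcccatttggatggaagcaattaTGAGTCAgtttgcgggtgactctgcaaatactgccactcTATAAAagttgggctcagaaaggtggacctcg
Mmp7, chr8:13132893-13133042: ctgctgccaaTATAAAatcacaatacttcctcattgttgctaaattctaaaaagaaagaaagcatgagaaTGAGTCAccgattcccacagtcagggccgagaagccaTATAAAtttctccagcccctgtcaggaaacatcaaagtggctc
Mmp12, chr8:12866502-12866651: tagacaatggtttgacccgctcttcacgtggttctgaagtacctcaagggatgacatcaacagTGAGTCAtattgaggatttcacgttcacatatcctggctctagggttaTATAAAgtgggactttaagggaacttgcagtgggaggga

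AP-1 is the transcription factor formed by Fos and Jun proteins, and the TATA box positions the polymerase. The AP-1 letters began 71 bases before the start of Mmp3, 80 before Mmp7 and 87 before Mmp12, and read the same on both strands. The TATA letters began 32, 43 and 39 bases before the start, and Mmp7 had a further match 140 bases before it. Searched on both strands of windows of 300 bases, 250 before and 50 after the start, TGANTCA was found in 7.33% of 33469 rat promoters, TATAAA in 14.2% and both in 1.36%. The motifs do not overlap each other in the sequences shown. Of the 38 members with a promoter in the table, 4 held the AP-1 letters (Col6a1 beside the neighbours), 7 held TATAAA, including Postn and Tnc, and only the 3 neighbours held both. These are matches of letters and not measured sites.

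Mmp7 was nearly absent from control kidneys. It had 0, 0, 0, 2 and 0 counts in NoOp 1 to 5 and between 38 and 664 counts in SNx. Against a floor of 3 counts per library, its mean level in SNx was at least 97.7-fold higher, and even the lowest SNx rat was at least 15.0-fold higher than that floor (FDR = 5e-05, edgeR). Mmp12 (ENSRNOG00000030187) had 8, 5, 10, 7 and 1 counts in NoOp and from 65 to 800 in SNx. On the log2 CPM scale Mmp12 was -1.48, -2.01, -1.40, -1.97 and -3.19 in NoOp and 1.26, 2.45 and 4.96 in the lowest, median and highest SNx library, a log2 fold change of 5.28 ± 0.71 (FDR = 1.7e-05, edgeR). The highest Mmp12 level was in SNx 2, and that of Mmp7 in SNx 1. Mmp3 stayed low, with 1, 0, 3, 0 and 2 counts in NoOp and at most 44 in SNx. Only SNx 1, SNx 2, SNx 3, SNx 9 and SNx 12 exceeded the highest Mmp3 count of a control, with 44, 10, 4, 11 and 17 counts.

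**Figure D3:**
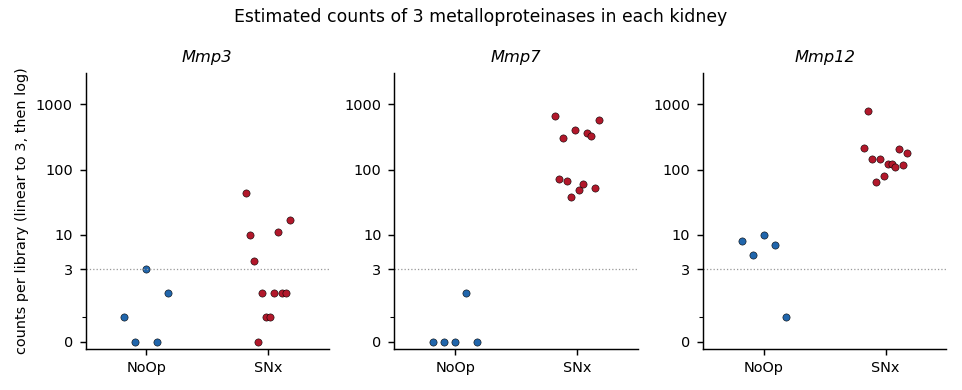
Estimated counts of Mmp3, Mmp7 and Mmp12 in each library of NoOp (5) and SNx (12), on an axis that is linear up to 3 counts and logarithmic above. The dotted line marks 3 counts, the floor for a fold. Mmp7 and Mmp12 are above all controls in all 12 SNx rats, and Mmp7 splits into 6 rats at 38 to 71 counts and 6 at 304 to 664.

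Of the other metalloproteinases, Mmp2 (ENSRNOG00000016695), gelatinase A, was 3.81, 4.02, 3.64, 3.85 and 3.40 log2 CPM in NoOp and 4.58, 5.90 and 7.32 in SNx, with no overlap (2.26 ± 0.33, FDR = 3.7e-05, edgeR). Mmp14, the membrane protease that activates the Mmp2 product, was described only, with a fold of 3.14. Mmp11, stromelysin-3, did not pass. It was 4.76, 4.59, 4.66, 4.72 and 4.39 log2 CPM in NoOp and 4.41, 4.76 and 5.27 in SNx (0.21 ± 0.12, FDR = 0.15, edgeR), and it was called only with library size alone as scaling (0.42).

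All 6 genes of the ADAM and ADAMTS family were above every control in every SNx rat. The same held for 13.5% of all genes and 35.3% of the other genes listed only in study 1. For the 4 that the study lists for these kidneys this is not independent. Adam23 (ENSRNOG00000012424), a cell surface adhesion protein without protease activity, was 2.07, 1.74, 1.42, 1.34 and 0.86 log2 CPM in NoOp and 3.10, 3.72 and 4.51 in SNx (2.34 ± 0.26, FDR = 3e-06, edgeR). Adamts14 (ENSRNOG00000000563), which trims the ends of procollagen, was 2.06, 1.80, 2.60, 2.03 and 2.85 log2 CPM in NoOp and 3.55, 3.90 and 5.39 in SNx (1.82 ± 0.29, FDR = 9.4e-05, edgeR). The 4 others were described only. Adamts4 and Adamts1, both proteoglycan-cutting enzymes, had folds of 8.77 and 8.07, Adamtsl4, a fibrillin-binding relative without protease activity, 3.50 and Adamts16 2.08.

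The cathepsins, lysosomal and secreted proteases that macrophages hold in abundance, rose together. Rises made up 48.9% of the other genes listed only in study 1. Ctsz (ENSRNOG00000050697) had the smallest p-value of all 36 tested genes. It was 3.88, 4.28, 4.03, 4.29 and 4.10 log2 CPM in NoOp and 5.19, 5.74 and 6.09 in SNx (1.58 ± 0.14, FDR = 2.9e-07, edgeR). Ctsk (ENSRNOG00000021155), a collagen-cutting cathepsin, was 2.74, 3.15, 2.82, 3.12 and 2.51 log2 CPM in NoOp and 3.57, 4.47 and 5.05 in SNx (1.55 ± 0.25, FDR = 8.2e-05, edgeR). Both had no overlap. Ctse rose 3.03-fold and Ctss 2.17-fold, with 1 SNx library of Ctss inside the control range, and Ctsd, described only, had a fold of 2.77. The largest log2 fold changes among the macrophage markers were those of Gpnmb (4.48), Trem2 (3.69) and Mrc1 (2.85), all on the study's list for these kidneys. Across the 12 SNx rats none of the 5 cathepsins passed in its relation with the macrophage marker Cd68 (adjusted permutation p from 0.127 to 0.709). Cd68 is 1 marker and the rats are 12, so a relation that did not pass does not show that there is none.

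The 3 TIMP genes did not move together. Timp1 (ENSRNOG00000010208) was 1.07, 0.86, 0.99, 1.01 and 1.54 log2 CPM in NoOp and 3.15, 3.78 and 5.24 in SNx, a 7.63-fold rise (FDR = 2e-06, edgeR). Timp2 (ENSRNOG00000003148), which also helps to activate the Mmp2 product, was 5.93, 5.97, 5.85, 5.97 and 5.81 log2 CPM in NoOp and 6.30, 6.75 and 7.77 in SNx, a 1.90-fold rise (FDR = 0.0004, edgeR). Timp3 (ENSRNOG00000004303), the TIMP that stays bound to matrix and also blocks ADAMTS enzymes, was described only and was lower. It was 8.43, 8.80, 8.49, 8.90 and 8.83 log2 CPM in NoOp and 6.62, 7.55 and 8.23 in SNx, below every control, with a fold of 0.424. With library size alone as scaling its direction was the same.

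Of 4 serpins 1 rose, 2 fell and 1 did not pass. Among the other genes listed only in study 1, 48.9% rose and 43.2% fell. Serpinf2 (ENSRNOG00000003233), alpha-2-antiplasmin, blocks plasmin itself. It was 8.35, 8.49, 8.78, 8.67 and 8.74 log2 CPM in NoOp and 3.91, 7.09 and 8.15 in SNx, below every control (-1.51 ± 0.45, FDR = 0.0091, edgeR). Serpinc1 (ENSRNOG00000002783), antithrombin, was 6.41, 6.86, 6.05, 6.88 and 6.29 log2 CPM in NoOp and 0.73, 4.88 and 6.20 in SNx, with 11 of 12 rats below the controls (-1.67 ± 0.60, FDR = 0.024, edgeR). The Serpinc1 call was lost without NoOp 2 or without NoOp 4, with log2 fold changes of -1.58 and -1.57. Serpina11 rose 5.01-fold (FDR = 0.011, edgeR) at a low level, from -3.75 to -1.82 log2 CPM in NoOp and -2.46 to 0.11 in SNx.

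Serpine2 (ENSRNOG00000015461), protease nexin-1, an inhibitor of thrombin and plasminogen activators, did not pass (1.03 ± 0.48, FDR = 0.075, edgeR; 1.12 and past the threshold without SNx 6 or without SNx 8), and its SNx values lay in separate ranges. NoOp 1 to 5 were at 4.18, 3.54, 3.26, 3.72 and 2.87 log2 CPM. Of the SNx rats 5 lay between 2.69 and 3.24 log2 CPM and 7 between 4.86 and 5.55, so the 7 were above all controls and the 5 lay at the lower end of the controls or below it. The gap between the ranges was 1.62 log2 CPM, or 56.7% of the whole SNx range, and a gap as large was found in 0.602% of all genes. The median of the 7 exceeded that of the 5 by 2.05 in the deposited log2 values as well. The 5 low rats were SNx 1, SNx 5, SNx 6, SNx 8 and SNx 10. The same 5 rats were the lowest for Timp3, at 6.62 to 6.90 log2 CPM against 7.48 to 8.23 in the others, and for Serpinf2 and Serpinc1. They were also the 5 rats with the lowest level of Slc3a1, a cystine transporter of the proximal tubule. Gaps as large as those of Timp3, Serpinf2 and Serpinc1 were found in 6.65%, 3.65% and 0.849% of all genes. Mmp7 had a gap of 1.79 log2 CPM, but between other sets of 6 rats, with SNx 5 and SNx 8 on the low side and SNx 1, SNx 6 and SNx 10 on the high side.

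Ratios between members within a library asked whether partner genes moved by the same amount. Of 7 pairs tested with a two-sided exact permutation test over all splits into 12 and 5, 4 passed after adjustment over the 7, and 0.000162 is the smallest p these splits allow. Col1a1 rose more than its chaperone Serpinh1. The log2 ratio went from -1.26 to -0.80 in NoOp to 0.63 to 4.10 in SNx, a difference of 2.77 (exact permutation p = 0.000162, adjusted p = 0.000566). Col1a1 also gained on Lox by 1.35 on the log2 scale (exact p = 0.00097, adjusted p = 0.00226), with 11 of 12 rats above the controls. Mmp2 gained on Timp2 by 1.25, from -2.41 to -1.95 in NoOp to -1.72 to -0.44 in SNx (exact p = 0.000162, adjusted p = 0.000566). Sparc gained on Sparcl1 by 0.46 (exact p = 0.00291, adjusted p = 0.00509). Without SNx 1 these differences were 2.54, 1.21, 1.20 and 0.42, and all 4 passed.

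The other 3 tested pairs did not pass. The log2 ratio differed by 0.48 for Lox over Loxl1 (exact permutation p = 0.0987, adjusted p = 0.0987). For Ctsk over Ctss the difference was 0.39 (exact p = 0.0632, adjusted p = 0.0737), yet all 12 SNx rats lay outside the control range, 10 above it and 2 below. Of the pairs described with no test, Timp1 over Timp3 went from -7.94 to -7.29 in NoOp to -4.83 to -1.37 in SNx, a 17.4-fold shift of the ratio. Col1a1 over Col4a1 shifted by 1.66 on the log2 scale, and Adamts4 over Adamts1 by 0.16.

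The members varied more among SNx rats than among controls. Their median SD over libraries was 0.54 log2 CPM in SNx and 0.22 in NoOp, and over all genes 0.29 and 0.17. For 44 of the 47 members SNx had the larger SD, as it did for 81.9% of all genes. Serpinc1 varied most, by 46.5-fold in CPM between the highest and the lowest SNx rat, followed by Postn (26.5-fold), Mmp7 (19.9-fold) and Serpinf2 (19.0-fold). Mmp11 varied least by this measure, 1.81-fold. SNx 8 and SNx 11 each had the lowest level of 13 members, and of 6.53% and 13.9% of all genes.

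To see along which lines the rats differed, each member was correlated across the 12 SNx rats with Col3a1 (fibrillar collagen III, left out of the set), Slc3a1 (proximal tubule) and Cd68 (macrophages), 141 relations in all with p-values from 100000 permutations. All 47 share the same libraries and scaling. Across rats Col3a1 and Slc3a1 did not pass (r = -0.50, permutation p = 0.0915; rho = -0.27, p = 0.403). Cd68 had r = 0.65 with Col3a1 (permutation p = 0.0212; rho = 0.59, p = 0.0455) and r = -0.74 with Slc3a1 (permutation p = 0.0065; rho = -0.63, p = 0.0315). Past an adjusted p of 0.05 were 20 members with Col3a1, all positive. With Slc3a1 there were 27, of which 22 were negative, and with Cd68 22, of which 18 were positive. The share of all genes with such relations was not computed, so these counts do not show a trait of the set. Serpine2, Mmp7, Ctsk, Serpina11 and Timp3 had a gap of over 33% of their range, so no r over all rats is given for them, and without these 5 the counts were 19, 24 and 21.

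**Figure D4:**
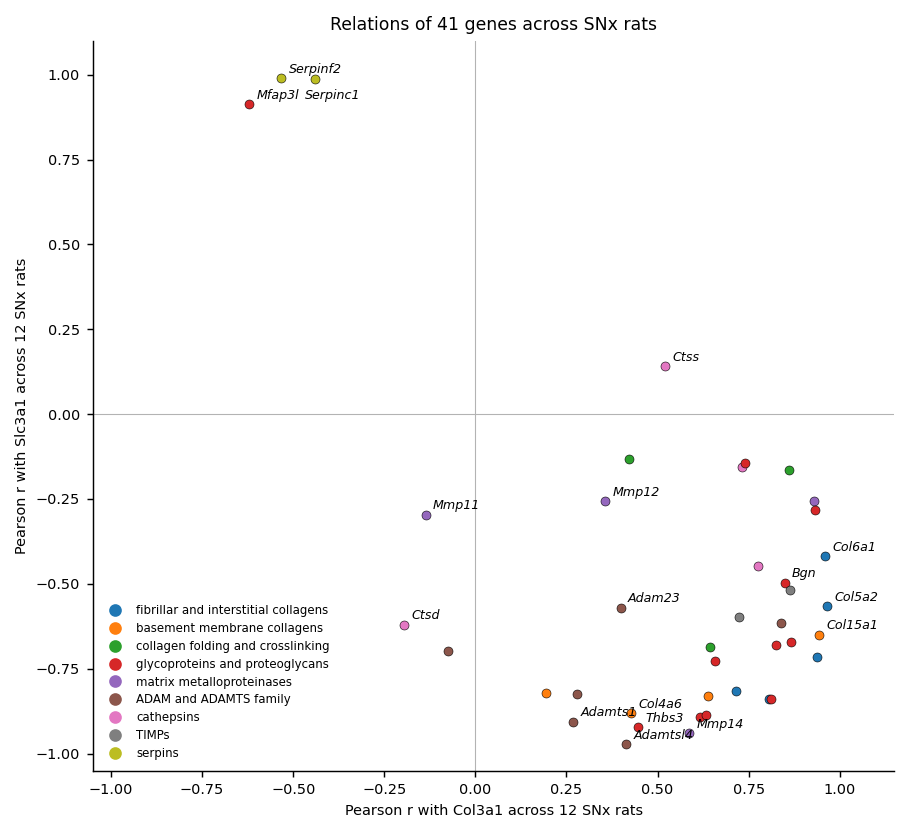
Pearson r of 41 members across the 12 SNx rats with Col3a1 (horizontal) and with Slc3a1 (vertical), coloured by role; members with a gap in their values are not drawn. Col5a2, Col6a1 and Col15a1 lie at the right edge, and Serpinf2 and Serpinc1 at the top against Adamtsl4 and Mmp14 at the bottom.

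Among the members, the closest companions of Col3a1 were other collagens. Col5a2 had r = 0.96 (adjusted permutation p = 0.000423; rho = 0.92, adjusted p = 0.00258), Col6a1 had r = 0.96 (adjusted permutation p = 0.00125; rho = 0.77, adjusted p = 0.0267) and Col15a1 had r = 0.94 (adjusted permutation p = 0.000423; rho = 0.86, adjusted p = 0.00661). Much of this rested on SNx 1, whose Col3a1 level lay far above the rest. Without SNx 1 the values of r were 0.90, 0.88 and 0.86, and 7 of the 20 relations passed. Within the 6 rats of each range of label numbers all 20 relations kept their sign. Without SNx 1 and SNx 8, the rats farthest from the median of Col3a1, r was 0.82, 0.68 and 0.79, none of the 20 passed the adjusted threshold and 8 had an unadjusted p under 0.05.

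The largest r of all 141 relations were with Slc3a1. Serpinf2 followed it with r = 0.99 and the rats stood in exactly the same order for both genes (rho = 1; adjusted permutation p = 0.000282 and 0.00047, each from the smallest p that 100000 permutations give, 1e-05). Serpinc1 had r = 0.99 (adjusted permutation p = 0.000282; rho = 0.98, adjusted p = 0.00047). Adamtsl4 went against Slc3a1 with r = -0.97 (adjusted permutation p = 0.000282; rho = -0.95, adjusted p = 0.000564). Without SNx 1 and SNx 5, the rats farthest from the median, r was 0.98, 0.97 and -0.94, and without SNx 1 alone it was 0.99, 0.98 and -0.96. Within the lower and the upper range of label numbers Serpinf2 had r = 0.99 and 0.98, and 25 of the 27 relations had the same sign in both ranges. In the set of 10 rats without SNx 1 and SNx 5, 12 of the 27 relations passed the adjusted threshold. Inside the 7 rats above the gap in Serpinf2 and Serpinc1, r with Slc3a1 was 0.98 and 0.94. In the same 7 rats Timp3 had r = 0.79 and Serpine2 r = -0.65. Serpine2 was thus higher in the 7 rats with more Slc3a1. Its r within those 7 was not tested, and 7 rats are too few to show that a relation is absent there.

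**Figure D5:**
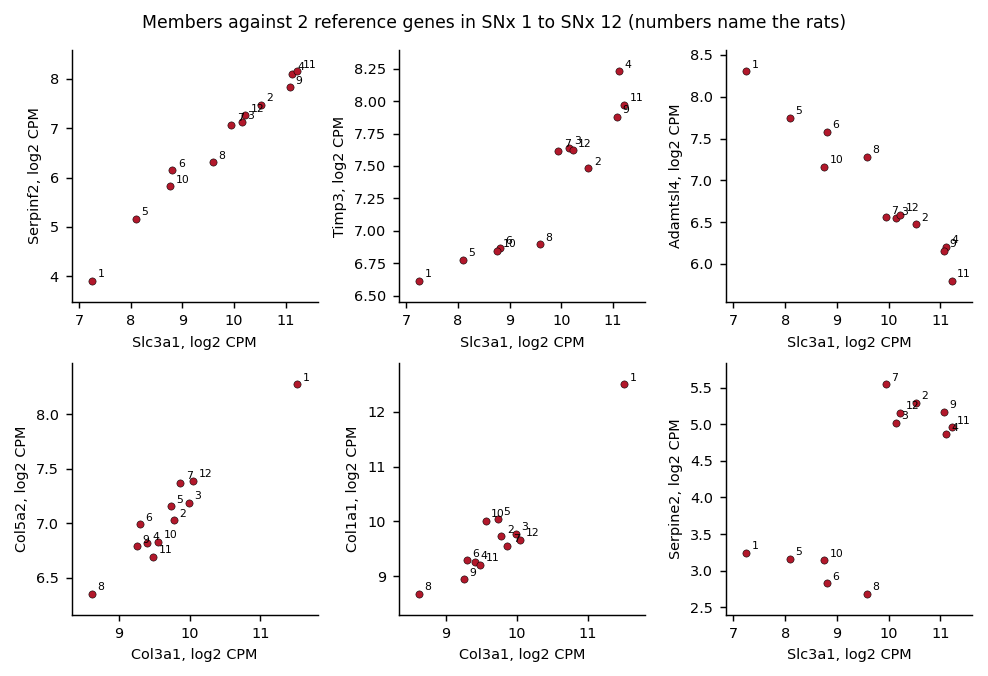
Each point is 1 of the 12 SNx rats, numbered, with the log2 CPM of a reference gene (horizontal, Slc3a1 or Col3a1) and of a member (vertical). Serpinf2 rises and Adamtsl4 falls with Slc3a1. Serpine2, Serpinf2, Timp3 and Adamtsl4 each have a gap between the 5 rats with the lowest Slc3a1 and the other 7. The gaps are 1.62, 0.76, 0.59 and 0.58 log2 CPM. Within those 7, r with Slc3a1 is 0.79 for Timp3 and -0.65 for Serpine2, neither of them tested. For Col5a2 and Col1a1 SNx 1 stands far from the other rats.

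With Cd68, Fn1 had r = 0.80 (adjusted permutation p = 0.00540; rho = 0.76, adjusted p = 0.0267) and Vcan r = 0.79 (adjusted permutation p = 0.00892; rho = 0.73, adjusted p = 0.0386). Without SNx 1 they were 0.70 and 0.66 and none of the members passed. Without SNx 1 and SNx 5, the rats farthest from the median of Cd68, they were 0.58 and 0.62 and 1 member passed. Leaving out SNx 5 or SNx 11 left 11 and 12 of the 22. The number of members past the threshold with Cd68 thus varied with single rats, from 0 to 26 with 1 rat left out. Whether this goes beyond the smaller number of rats was not tested.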

How the data were processed

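Kidney RNA of 12 SNx and 5 NoOp rats was analysed, taken as 1 library per rat. Libraries were depleted of ribosomal RNA, strand-specific and paired-end, although the molecule label reads polyA RNA. Salmon is named in the submitters' processing notes, and the methods name the Rn6 transcriptome and tximport; estimated counts per gene were deposited by the authors as whole numbers. The authors also deposited log2 values after voom for 13318 genes, used here as an alternative only. The methods state that RNA quality varied widely, and no value per library was used here. Symbols came from the study's own lists and covered 2007 of 23487 identifiers. No transcript length was used, so levels are not compared between genes.

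Counts were rounded, filtered with filterByExpr, scaled with TMM and tested two-sided with edgeR 4.0.16 (quasi-likelihood, R 4.3.3) with Benjamini-Hochberg adjustment over 15438 genes. log2 CPM used a prior count of 2. Ratios of members were tested by enumerating every way to split the 17 libraries into 12 and 5, and correlations used 100000 permutations. Alternatives were DESeq2 1.42.0, limma-voom 3.58.1, other scalings and filters, and leaving out each library. The scripts were tested on simulated data. Counts carry no molecular identifiers, and p-values measure the spread between these rats. Members, roles, lists, pairs and reference genes were chosen with earlier results of these data known. Named with every value are the 2 tested members with the smallest p per role and those that fell or did not pass. The values of 1 member, 1 pair with it and 1 gene of a list are not reported here, though the fits, adjustments and counts include them. The gaps between rats, and the naming of Mmp3, Mmp7, Col1a1 and Postn, were chosen after their values were seen.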

Additional observations from a re-analysis of the deposited data

Results flagged for a closer look

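In 3 of the 47 members a control library lay far from the other 4 by Dixon's criterion for groups of 5 (a gap to the nearest library above 0.71 of the whole range), where chance gives about 2.35. For Sparc, the matrix glycoprotein osteonectin, NoOp 5 was at 8.17 log2 CPM and the others between 8.48 and 8.54. For Adamtsl4, NoOp 2 was at 4.97 log2 CPM and the others between 5.26 and 5.37. For Mmp7, NoOp 4 was at -2.99 log2 CPM because it had 2 counts where the other controls had 0. All 12 SNx rats lay above all 5 controls for each of these genes.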

How the results depend on the processing

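No fold change or pair ratio turned its direction under any alternative run. Of the relations past the threshold, r of Tnc with Cd68 went from 0.64 to -0.05 without the 2 farthest rats and to -0.16 in the upper range of label numbers, and there r with Slc3a1 turned from -0.73 to 0.04 for Tnc and from -0.69 to 0.25 for Loxl1. With a change of at least 1.5-fold required as well, 5165 of all genes were called in place of 8949, and 31 of the 36 tested members in place of 33. With library size alone as scaling, 74.6% of all calls were rises instead of 52.2%, the median of all genes was 0.23 instead of 0.02, and all 36 members were called. Leaving out 1 library at a time, 7914 to 9438 genes and 32 to 35 members were called. The log2 ratio of Ctsk over Ctss was 0.55 and passed with the SNx libraries of the upper range of label numbers alone (adjusted p = 0.0101), and with 1 library left out it ranged from 0.34 to 0.47, passing without SNx 5 or SNx 6. Lox over Loxl1 ranged from 0.35 to 0.59 and passed without SNx 6 (0.58). Without NoOp 4, its only control with counts, the fitted log2 fold change of Mmp7 was 11.09 instead of 9.24, neither of which is a bound. Relations past the threshold numbered 9 with Col3a1, 19 with Slc3a1 and 10 with Cd68 by Spearman's rho. Without the 2 farthest rats they numbered 0, 12 and 1, and with 1 rat left out 7 to 20, 19 to 29 and 0 to 26. The cause was not tested beyond the smaller number of rats. No paired analysis was possible because the labels give no replicate numbers that SNx and NoOp share.

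Depth limits Mmp3, Mmp7 in controls and Serpina11, which lie near 3 counts in some libraries. All NoOp labels carry numbers of the lower range, so the range of numbers and the group cannot be told apart for the 6 SNx libraries of the upper range. Of the single genes, Mmp11, Serpine2 and Vcan passed under 1, 4 and 8 alternatives, and Serpinc1, Serpinh1 and Sparcl1 were lost under 2, 1 and 1.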

Other observations

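Genes of the same kinds outside the set were measured wherever they had a symbol. Only genes that the study lists as changed have a symbol, and 92.1% of its study 1 list was called here, so counts of calls say little by themselves. Of 49 other matrix genes 15 had an identifier, and of these 11 rose, 3 fell and 1 did not pass at an FDR of 0.05 (edgeR), with a median log2 fold change of 0.82. Cthrc1, a secreted protein of collagen-making cells, rose by 4.86 on the log2 scale, Ltbp2, a fibrillin-binding protein, by 3.99 and Smoc2 by 1.88, and for all 3 the groups did not overlap. The 3 that fell were Npnt (nephronectin, -1.28), Tinag (tubulointerstitial nephritis antigen, -1.26) and Tgfbi (-0.95). Both Npnt and Tinag belong to basement membranes of the tubule. Of 43 other proteases and inhibitors 15 had an identifier, of which 8 rose and 6 fell, and among the genes that fell were Anpep (-1.91), Dpp4 (-1.26) and Enpep (-1.13), which are peptidases of the proximal tubule brush border, with Hpn and Ace beside them. Slpi, Cst7 and Htra3 rose the most of that list, by 3.32, 3.05 and 1.96. Some genes of both lists are on the study's own list for these kidneys (4 and 3), so their direction is not independent. The genes of both lists that fell were named after their values were seen.

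Of the other markers, 7 of 10 injured tubule genes had an identifier and rose, with the largest log2 fold changes in Lcn2 (5.06), Spp1 (4.44) and Clu (3.83), and 3 of 14 lymphocyte genes had an identifier and rose. Ptpro of podocytes and Ehd3 of endothelium fell by 1.32 and 0.73, each the only gene of its list with an identifier. Lcn2, Spp1, Clu, Ptpro and Ehd3 are on the study's list for these kidneys, so their direction is not independent either. Of the liver list only Fgb had an identifier, and it rose by 3.93. No distal nephron marker had an identifier.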
